A study of Mus musculus with 14 samples.

Results

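The comparison described here asked which genes of mouse triceps differed in their running response between FLExDUX4 mice and their WT littermates. For each gene it was the difference of differences, (FLExDUX4 running minus FLExDUX4 control) minus (WT running minus WT control), called the interaction below. It drew on all 14 of the 14 mice of the series, grouped by their sample titles: 3 WT controls, 4 WT runners, 3 FLExDUX4 controls and 4 FLExDUX4 runners. All were male. The runners had 6 weeks of voluntary wheel running, and the controls did not run. FLExDUX4 mice carry a human DUX4 transgene in a cassette that Cre recombinase can invert, and the line is used to model facioscapulohumeral muscular dystrophy. No Cre line is named in the labels. The transgene itself could not be followed, since the gene rows used here hold none for DUX4. Ages and running distances are not given in the sources used here.

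Skeletal muscle is built of fibres that differ in contractile speed and fuel use. Slow and intermediate fibres burn fatty acids in many mitochondria and are fed by a dense capillary bed, while the fastest fibres lean on glycolysis. Endurance exercise is known to move fast fibres toward the more oxidative kinds and to raise mitochondrial and capillary genes. An interaction below 0 means that the running difference was lower in FLExDUX4 than in WT mice. By the same arithmetic it means that the genotype difference was lower in runners than in controls. The interaction therefore has a second reading, which pair of groups carries it, and both readings are given for each gene.

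Libraries were 3′-end tags (QuantSeq FWD) with 3269357 to 6995811 gene counts per mouse, so levels are given as CPM, read counts relative to library size scaled with edgeR's TMM factors. A 3′ tag library gives 1 tag per transcript, so CPM carries no length term. The labelled tissue matched its defining markers: among all tested genes in WT controls, Acta1 ranked 3, Myh4 ranked 4, Ttn ranked 6 and Ckm ranked 13. Markers of other cell types that a whole muscle holds were present as well, while the T cell genes Cd3g, Cd4, Cd8a and Cd8b1 had 0 counts in every library. In bulk tissue, fewer cells of a type and less RNA per cell cannot be told apart, and this holds for every level below. Transcripts of the mitochondrial genome took a mean of 24% of gene counts in WT controls, 31.8% in WT runners, 26.2% in FLExDUX4 controls and 33.2% in FLExDUX4 runners.

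No gene passed the test for the interaction. Of 11088 tested genes among 52550 listed, 0 were called (0%) at an adjusted p under 0.05 in edgeR's quasi-likelihood test with Benjamini-Hochberg adjustment, and the smallest adjusted p was 0.199, for Pim3. DESeq2 and limma-voom also called 0, though their smallest adjusted p differed, at 0.057 in DESeq2 and 0.838 in limma-voom. At an unadjusted p under 0.05 there were 537 genes (4.84%), of which 242 (2.18%) lay above 0 and 295 (2.66%) below, and DESeq2 had 605 at that threshold. The contrast draws its error from all 4 groups: its median standard error was 0.49 on the log2 scale, against 0.32 for the genotype difference in runners. A p of 4.51e-06 would have been needed for a single gene to be called, and the smallest observed was 1.80e-05. The values below therefore describe genes that did not pass the test.

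The running difference alone was called for 55 genes in WT mice (0.496%) and for 0 in FLExDUX4 mice (0%, with 738, or 6.66%, at an unadjusted p under 0.05). That contrast of counts is not a test of a difference between the genotypes, which is what the interaction tests. The WT count also rested on single mice, since it was 0 without WT control 1 and 197 without WT running 3. The genotype difference was called for 0 genes in controls (0%, with 554, or 5%, at an unadjusted p under 0.05) and for 0 in runners (0%, with 350, or 3.16%), while DESeq2 called 3 genes in controls. The authors' deposited comparisons have 302 genes under an adjusted p of 0.05 for running in WT mice. They have 4 for running in FLExDUX4 mice (Egln3, Tef, Usp2 and Mylk2), 1 for genotype in controls (Pim3) and 1 for genotype in runners (Commd2). Across the 11088 genes, the running difference in FLExDUX4 mice correlated with that in WT mice at a Pearson coefficient of 0.15 and a Spearman coefficient of 0.16. The genotype difference in runners correlated with that in controls at a Pearson coefficient of -0.02 and a Spearman coefficient of -0.04. These are descriptions across genes, which are not independent replicates.

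**Figure D1:**
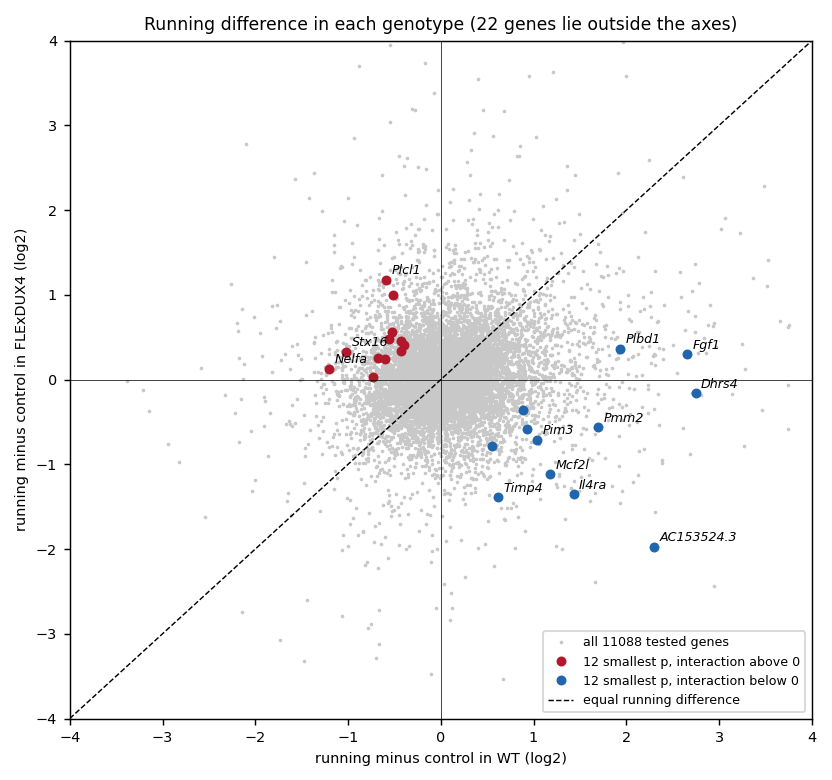
Log2 running difference (running minus control) in WT mice on the horizontal axis and in FLExDUX4 mice on the vertical axis for the 11088 tested genes, grey, with 22 outside the axes. Blue points are the 12 genes with the smallest p below 0 and red points the 12 above 0, all uncalled; the blue genes lie below the dashed line of equal difference and the red genes above it.

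The 12 genes with the smallest p below 0 were Pim3, Timp4, AC153524.3, Pmm2, Dhrs4, Fgf1, Slc9a3r2, Plbd1, Tbrg4, Ubp1, Il4ra and Mcf2l. Their interactions ran from -4.27 to -1.25 on the log2 scale and their adjusted p from 0.199 to 0.954 (edgeR). A gene is described as carried by the controls where its genotype difference in controls was at least 2 times as large as in runners, as carried by the runners where the reverse held, and otherwise as carried by both. By that arithmetic 7 of the 12 were carried by the controls, 2 by the runners and 3 by both. The FLExDUX4 and WT control groups did not overlap for 11 of them, where 11.4% of all tested genes have control groups that do not overlap. The runner groups did not overlap for 4, against 2.51% of all tested genes. Genes chosen for a small p are bound to have well separated groups, so those shares describe the 12 and support nothing further.

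Pim3 encodes a serine/threonine kinase of the PIM family, which promotes growth and survival and is known as a target of JAK-STAT signalling. The gene lies at chr15:88862186-88865726 on the plus strand (GRCm38). It stood at 24.6, 18.1 and 15.6 CPM in the WT controls and at 27.5, 53.5, 45.3 and 34.9 CPM in the WT runners. In FLExDUX4 mice it stood at 39.2, 71.6 and 33.4 CPM in the controls and at 25.1, 34.2, 31.3 and 27.1 CPM in the runners. All WT controls lay below all other mice, and the runner groups overlapped. The interaction was -1.75 ± 0.35 (SE, edgeR adjusted p = 0.199), made of a genotype difference of 1.29 ± 0.26 in controls and -0.46 ± 0.22 in runners. The running difference in WT mice, 1.04 ± 0.25, was called (adjusted p = 0.0483), and that in FLExDUX4 mice was -0.71 ± 0.24 (adjusted p = 0.600). In the authors' deposited table, Pim3 is the single gene under an adjusted p of 0.05 for genotype in controls, with a log2 fold change of 1.05 and an adjusted p of 0.0219. Across 25 alternative settings and left-out mice, the adjusted p of its interaction ranged from 6.08e-05 to 0.838 and it was called in 4.

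The 250 bases before the Pim3 start site are shown because it is the gene with the smallest p. They are from RefSeq on GRCm38.p6, chr15:88861944-88862193, plus strand, 5′ to 3′. The capitals mark matches to the half-site of estrogen-related receptors (AAGGTCA, on the reverse strand at -171 from the start site) and to the GC box (GGGCGG, at -128, -57 and -25, each on the reverse strand). Both strands were searched. The first motif is held by 4.08% and the second by 32.7% of all 32851 promoters of this length. The STAT motif TTCNNNGAA has no match in this window.
Pim3: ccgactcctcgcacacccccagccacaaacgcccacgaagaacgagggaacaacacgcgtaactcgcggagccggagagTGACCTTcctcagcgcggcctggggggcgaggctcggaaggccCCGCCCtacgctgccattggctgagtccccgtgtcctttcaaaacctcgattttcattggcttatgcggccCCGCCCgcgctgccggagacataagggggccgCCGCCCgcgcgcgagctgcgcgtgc

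Other signalling and matrix genes of this set divided by carrier. Fgf1, acidic fibroblast growth factor, was at 2.94, 1.51 and 3.01 CPM in WT controls and at 25.3, 14.6, 5.48 and 17 CPM in WT runners. It was at 7.13, 7.48 and 11.6 CPM in FLExDUX4 controls and at 11.5, 18, 9.03 and 5.70 CPM in FLExDUX4 runners. WT controls again lay below all other mice, and neither FLExDUX4 group stood apart from the WT runners. Its interaction was -2.35 ± 0.61 (edgeR adjusted p = 0.758), with a called running difference of 2.65 ± 0.47 in WT mice (adjusted p = 0.0127) and 0.30 ± 0.40 in FLExDUX4 mice (adjusted p = 0.950). The 3′ end of Fgf1 overlaps Arhgap26 on the other strand. Because the strand setting of the counting is not given in the sources used here, reads of such neighbours cannot be told apart.

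Timp4, a tissue inhibitor of matrix metalloproteinases, was carried by the runners. It was at 14.1, 13.6 and 8.42 CPM in WT controls and at 11.5, 29.7, 11.8 and 21.2 CPM in WT runners. FLExDUX4 controls had 17.6, 19.2 and 18.9 CPM, and FLExDUX4 runners had 5.25, 11.3, 5.42 and 6.56 CPM. The FLExDUX4 runners lay below all WT runners and all FLExDUX4 controls, while they overlapped the WT controls. The interaction was -2.0 ± 0.45 (edgeR adjusted p = 0.488), from a genotype difference of 0.61 ± 0.34 in controls and -1.39 ± 0.30 in runners. Timp4 lies within Syn2, which is read from the opposite strand. Mcf2l, a guanine nucleotide exchange factor, was also carried by the runners, at 2.42 to 3.5 CPM in FLExDUX4 runners and 4.75 to 22.2 CPM in WT runners. Its genotype difference was 0.49 ± 0.51 in controls and -1.80 ± 0.44 in runners. WT running 2, at 22.2 CPM, was the highest of its group, and the other WT runners had 4.75, 8.73 and 5.13 CPM.

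Il4ra, the receptor chain shared by interleukin 4 and interleukin 13, was at 0.648 to 2.52 CPM in WT controls and at 3.99 to 7.96 CPM in FLExDUX4 controls. The runner groups overlapped, at 1.95 to 5.15 CPM in WT and 1.85 to 2.71 CPM in FLExDUX4 mice. WT running 2 alone, at 1.95 CPM, made that overlap, and the other WT runners lay above all FLExDUX4 runners. Its interaction was -2.78 ± 0.81, from counts of 3 to 39 per mouse. Slc9a3r2, which encodes a PDZ scaffold protein, had an interaction of -1.52 ± 0.41 and the transcription factor gene Ubp1 one of -1.34 ± 0.38. Ubp1 was at 9.91 to 12.8 CPM in FLExDUX4 runners and 15.1 to 23.5 CPM in WT runners. Its 3′ end overlaps that of Fbxl2.

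Metabolic genes of the set were carried by the controls. Dhrs4, a peroxisomal reductase that acts on retinoids and other carbonyls, was at 1.47, 3.67 and 1.81 CPM in WT controls and at 23.9, 6.22, 7.11 and 26.2 CPM in WT runners. It was at 9.88, 6.98 and 13.9 CPM in FLExDUX4 controls and at 11.5, 11.8, 9.03 and 5.27 CPM in FLExDUX4 runners. WT controls lay below all other mice, and both FLExDUX4 groups lay within the range of the WT runners or just under it. The interaction was -2.91 ± 0.70 (edgeR adjusted p = 0.708), from a called running difference of 2.75 ± 0.54 in WT mice (adjusted p = 0.0292) and -0.16 ± 0.45 in FLExDUX4 mice (adjusted p = 0.977). Pmm2, the phosphomannomutase that supplies mannose 1-phosphate for protein glycosylation, was at 1.81 to 3.02 CPM in WT controls and at 3.91 to 12.9 CPM in all other mice. Its interaction was -2.26 ± 0.58 (adjusted p = 0.708). Its 3′ end overlaps Carhsp1.

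Plbd1, a phospholipase B-like protein, was at 4.21 to 8.21 CPM in WT controls and at 10.5 CPM or above in all other mice. Its running difference of 1.93 ± 0.32 in WT mice was called (adjusted p = 0.00561), that in FLExDUX4 mice was 0.37 ± 0.29 (adjusted p = 0.879), and the interaction was -1.57 ± 0.43 (edgeR adjusted p = 0.758). Tbrg4, which acts on mitochondrial RNA, had an interaction of -1.25 ± 0.35. Its highest group was the WT runners, at 19.9 to 25.3 CPM, against 12.1 to 16.4 CPM in FLExDUX4 runners, and its control groups did not overlap either. The last of the 12, AC153524.3, is annotated as a processed pseudogene inside Cep85l and had 1 to 39 counts per mouse, so its interaction of -4.27 ± 1.01 (adjusted p = 0.573) is uncertain.

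**Figure D2:**
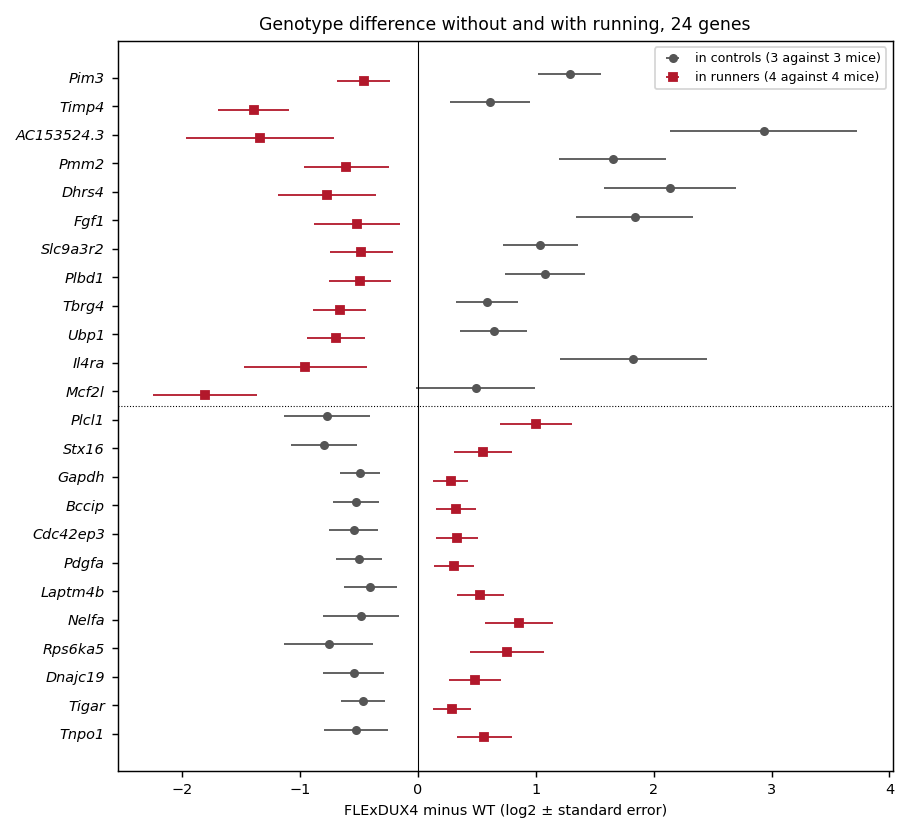
Genotype difference (FLExDUX4 minus WT, log2 ± standard error of the fit) in the 6 controls, grey circles, and the 8 runners, red squares, for the 12 genes with the smallest interaction p below 0 (above the dotted line) and the 12 above 0. For Pim3 the controls sit at 1.29 and the runners at -0.46; Timp4 and Mcf2l are the genes below 0 whose red square lies at least 2 times as far from 0 as the grey circle.

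The 12 genes with the smallest p above 0 were Plcl1, Stx16, Gapdh, Bccip, Cdc42ep3, Pdgfa, Laptm4b, Nelfa, Rps6ka5, Dnajc19, Tigar and Tnpo1. Their interactions were smaller, from 0.76 to 1.77, with adjusted p from 0.758 to 0.954 (edgeR). All 12 were carried by both pairs of groups: the genotype difference was below 0 in controls and above 0 in runners. The control groups did not overlap for 9 of the 12 and the runner groups for 4, against 11.4% and 2.51% of all tested genes. These genes too were chosen for a small p, so the shares support nothing further.

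Plcl1, a phospholipase C relative without catalytic activity that binds inositol trisphosphate, had the smallest p of these. It was at 9.89, 11.2 and 9.93 CPM in WT controls and at 6.53, 7.99, 5.48 and 7.43 CPM in WT runners. It was at 6.04, 2.74 and 8.88 CPM in FLExDUX4 controls and at 15.4, 13.5, 15.1 and 11.4 CPM in FLExDUX4 runners. FLExDUX4 runners lay above all other mice, and WT controls lay above both remaining groups. The interaction was 1.77 ± 0.48 (edgeR adjusted p = 0.758), with running differences of 1.18 ± 0.34 in FLExDUX4 and -0.59 ± 0.33 in WT mice, neither called (adjusted p = 0.519 and 0.560). Rps6ka5, the kinase MSK1 that phosphorylates CREB and histone H3, was likewise highest in FLExDUX4 runners, at 9.12 to 14 CPM, and its interaction was 1.51 ± 0.49. It was at 4.97 to 9.95 CPM in WT runners and at 4.63 to 6.48 CPM in FLExDUX4 controls.

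Stx16, a SNARE protein of the trans-Golgi network, was at 27.6, 19.2 and 21.4 CPM in WT controls and at 13.7, 10.1, 11.4 and 9.73 CPM in WT runners. FLExDUX4 controls had 8.78, 14.5 and 15.6 CPM and FLExDUX4 runners 18.3, 17.8, 16.3 and 13.7 CPM. WT controls lay above all other mice. Its interaction was 1.35 ± 0.37 (edgeR adjusted p = 0.758). Nelfa, a subunit of the complex that holds RNA polymerase II near its start site, was at 5.28 to 9.30 CPM in WT runners and at 10.2 to 17.4 CPM in FLExDUX4 runners. Its 3′ end overlaps Nsd2 and Mir7024, and its interaction was 1.34 ± 0.43.

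Several of the other genes above 0 serve glycolysis, mitochondrial import or growth factor signalling. Tigar, which lowers fructose 2,6-bisphosphate and so slows glycolysis, was at 97.2 to 129 CPM in WT controls and at 62.3 to 86.3 CPM in WT runners. Its running difference in WT mice was called at -0.73 ± 0.17 (adjusted p = 0.0450), that in FLExDUX4 mice was 0.03 ± 0.18 (adjusted p = 0.992), and the interaction was 0.76 ± 0.25 (edgeR adjusted p = 0.954). Gapdh, the glycolytic dehydrogenase, was at 194 to 251 CPM in WT controls, 137 to 206 in WT runners, 139 to 193 in FLExDUX4 controls and 166 to 228 in FLExDUX4 runners. Its interaction was 0.77 ± 0.23, and it is uncertain because Gapdh has many near-identical pseudogenes that can share its reads. Dnajc19, a J-protein of the mitochondrial import motor, had an interaction of 1.03 ± 0.34 and overlaps Fxr1. Pdgfa, a platelet-derived growth factor chain, had one of 0.81 ± 0.26, with 49.6 to 53.9 CPM in WT controls and 31.4 to 41.0 CPM in FLExDUX4 controls. Bccip, a partner of BRCA2 and p21, was at 49.5 to 58.1 CPM in WT controls and at 28.0 to 46.9 CPM in FLExDUX4 controls, with an interaction of 0.85 ± 0.26. The remaining genes of the set, the Cdc42 effector gene Cdc42ep3, the lysosomal gene Laptm4b and the nuclear import receptor gene Tnpo1, had interactions of 0.88 ± 0.27, 0.93 ± 0.30 and 1.09 ± 0.36.

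**Figure D3:**
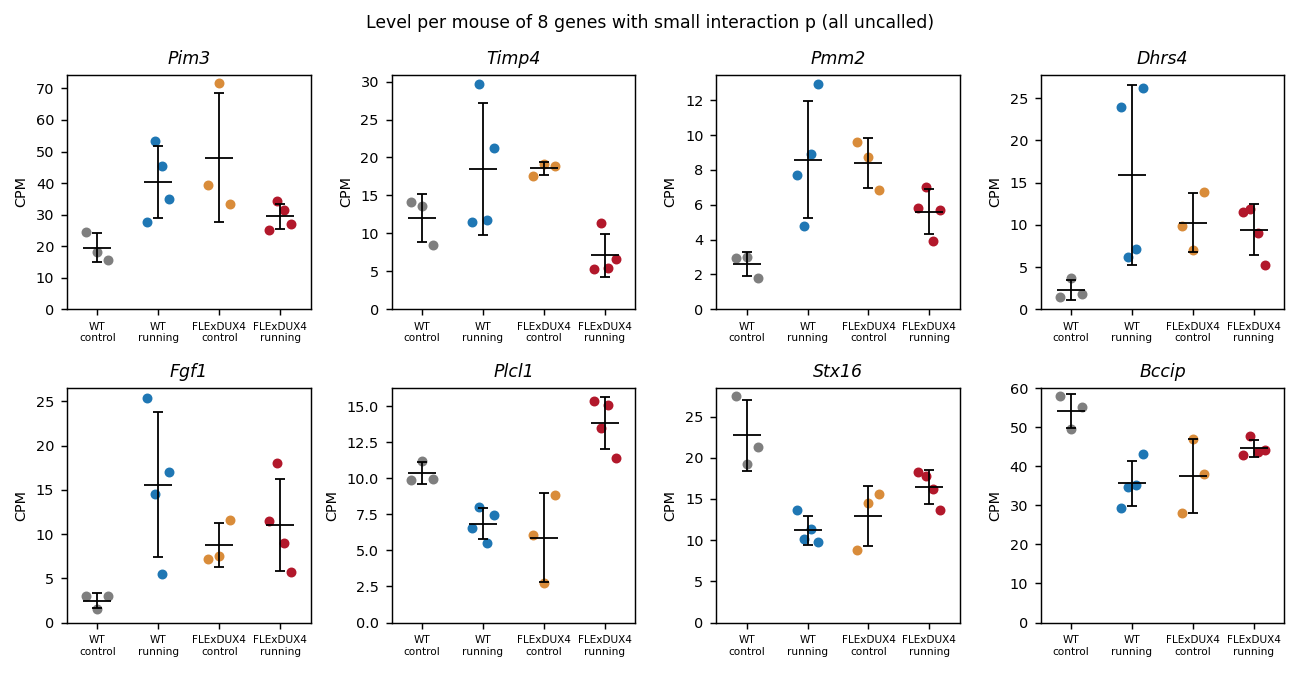
CPM per mouse for 8 genes with small interaction p, by group, with bars for the mean ± SD of 3 controls or 4 runners. Pim3, Pmm2, Dhrs4 and Fgf1 show the WT controls below every other mouse, Timp4 shows low FLExDUX4 runners, and Plcl1, Stx16 and Bccip show levels that cross between the genotypes.

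The slow fibre and intermediate oxidative fibre lists had the lowest medians of 47 lists with at least 3 tested genes. All tested genes had a median interaction of -0.01, with 49.4% above 0 and 4.84% at an unadjusted p under 0.05. The 13 slow fibre genes had a median of -2.12, with 0 above 0, 0 called and 0 at an unadjusted p under 0.05. Their median genotype difference was 2.22 in controls and 0.29 in runners, and their median running difference was 2.94 in WT and 0.69 in FLExDUX4 mice. By gene, 12 of 13 were carried by the controls, where 36.4% of all tested genes are. The mean log2 level of the list, set to 0 for the WT controls, was 3.58, 0.61, 1.34 and 3.54 in the WT runners. It was 1.52, 1.95 and 2.87 in the FLExDUX4 controls and 3.45, 3.92, 2.54 and -0.36 in the FLExDUX4 runners. The WT controls ran from -0.23 to 0.17, FLExDUX4 running 4 lay just below them, and the other mice spread from 0.61 to 3.92. For Myh7, the slow myosin heavy chain, the interaction was -2.27 ± 2.06 (edgeR adjusted p = 0.976), with 0.533 to 40.2 CPM among WT runners and 0.998 to 44.9 CPM among FLExDUX4 runners. Leaving out each mouse in turn moved the list's median between -2.53 and -1.49.

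Genes of intermediate oxidative fibres varied less between mice of a group. All 6 lay below 0, with a median of -1.82 and 5 at an unadjusted p under 0.05, none called. For 5 of the 6, the WT controls lay below every one of the other 11 mice, which held for 1.06% of all tested genes. Myom3, an M-band protein of intermediate-speed fibres, was at 0.841, 1.30 and 0.301 CPM in WT controls and at 42.2, 14.7, 5.68 and 19.8 CPM in WT runners. It was at 10.7, 9.48 and 14.8 CPM in FLExDUX4 controls and at 16.9, 28.3, 15.4 and 7.41 CPM in FLExDUX4 runners. The WT controls stood apart from the rest, and the 3 other groups overlapped. Its interaction was -4.04 ± 1.01 (edgeR adjusted p = 0.954), with a called running difference of 4.55 ± 0.81 in WT mice (adjusted p = 0.0411) and 0.51 ± 0.57 in FLExDUX4 mice (adjusted p = 0.942). The WT controls held 1 to 6 counts each, so these folds rest on few reads. Myom3 was called for the interaction without WT running 3 (adjusted p = 0.0284) and when no low-count filter was used.

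Myh2, the fast oxidative IIa myosin, was at 54.0 to 79.5 CPM in WT controls, 149 to 2349 in WT runners, 457 to 593 in FLExDUX4 controls and 186 to 1646 in FLExDUX4 runners. Its interaction was -3.27 ± 1.19. Myh1, the IIx myosin, was at 339 to 557 CPM in WT controls, 1087 to 3957 in WT runners, 1049 to 1490 in FLExDUX4 controls and 789 to 3114 in FLExDUX4 runners, with an interaction of -1.62 ± 0.69. For both, the WT controls lay below all other mice, although neither passed the test (edgeR adjusted p = 0.954 for each) and both overlap antisense genes. Myh4, the fastest IIb myosin and the most abundant of the 4, had an interaction of 0.32 ± 0.40. The small heat shock gene Hspb7 of the same list was at 12.8 to 21 CPM in WT controls and 23.0 to 41.9 in FLExDUX4 controls, with a called running difference of 2.27 ± 0.40 in WT mice (adjusted p = 0.0411) and 0.74 ± 0.37 in FLExDUX4 mice (adjusted p = 0.788). Its interaction was -1.52 ± 0.53. The sarcomere scaffold list as a whole had a median of -0.08, yet its members Pdlim1 and Actn2, both Z-disc proteins, had interactions of -1.56 ± 0.48 and -1.65 ± 0.66, each with the WT controls below all other mice.

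The 16 fast fibre genes had a median interaction of 0.23, with 14 above 0 and 0 at an unadjusted p under 0.05. Their median running difference was -0.49 in WT and -0.23 in FLExDUX4 mice. The median interaction was 0.09 without WT running 1, 0.12 without FLExDUX4 running 4 and 0.40 without WT running 3. For the 28 genes of glycolysis and glycogen use the median was 0.22, with 23 above 0, 2 at an unadjusted p under 0.05 above 0 and 1 below, and it was 0.14 without WT running 1. The 2 were Gapdh and Eno3, the muscle enolase, at 2873 to 3369 CPM in WT controls and 2031 to 2861 in FLExDUX4 controls, with an interaction of 0.48 ± 0.22. The 1 below was Ldhb, the heart-type lactate dehydrogenase subunit that oxidative fibres favour. It was at 3.02 to 10.3 CPM in WT controls, 39.2 to 185 in WT runners, 27.2 to 55.6 in FLExDUX4 controls and 22.5 to 156 in FLExDUX4 runners, with an interaction of -3.17 ± 1.02 (edgeR adjusted p = 0.954). With library sizes taken from the ERCC spike-ins, the medians of both lists turned to -0.07 for fast fibre and -0.09 for glycolysis genes, as the median of all genes moved to -0.33. Against that shifted median they stood at 0.26 and 0.24.

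**Figure D4:**
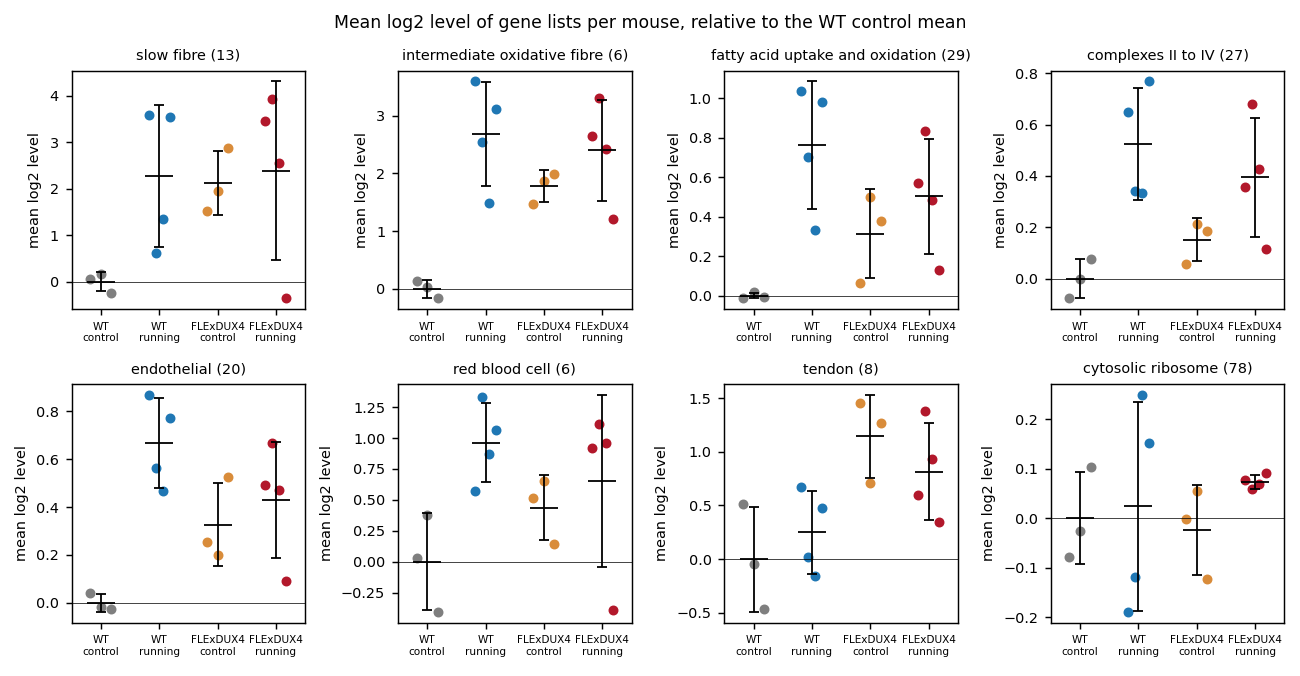
Mean log2 level of 8 gene lists per mouse (number of tested genes in parentheses), relative to the WT control mean, with bars for the mean ± SD of each group. In the slow fibre, intermediate oxidative fibre, fatty acid and endothelial panels the 3 WT controls lie close together near 0 and most other mice above them, while the cytosolic ribosome panel shows overlapping groups.

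Fatty acid genes leaned the same way with smaller values. Of 29 tested genes for fatty acid uptake and oxidation, 28 lay below 0, with a median of -0.60. At an unadjusted p under 0.05 there were 8, all below 0 and none called, where 2.66% of all tested genes lay below 0 at that threshold. Their median running difference was 0.77 in WT and 0.24 in FLExDUX4 mice, and their median genotype difference was 0.35 in controls and -0.23 in runners. The WT controls lay below every other mouse for 6 of the 29, which held for 1.06% of all tested genes. The list's mean log2 level was -0.01, 0.02 and -0.01 in WT controls, 0.33 to 1.04 in WT runners, 0.06 to 0.50 in FLExDUX4 controls and 0.13 to 0.83 in FLExDUX4 runners. WT controls lay below all other mice, and FLExDUX4 runners lay within or below the range of WT runners. Its median ranged from -0.71 to -0.43 with each mouse left out.

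Hadha and Hadhb encode the subunits of the mitochondrial trifunctional protein, which carries out the last steps of long-chain fatty acid oxidation. They are read in opposite directions from start sites 273 bases apart on chromosome 5. Hadhb was at 46.5, 42.6 and 57.8 CPM in WT controls and at 137, 66.4, 73.3 and 118 CPM in WT runners. It was at 72.7, 79.3 and 73.1 CPM in FLExDUX4 controls and at 72.1, 103, 71.4 and 58.9 CPM in FLExDUX4 runners. WT controls lay below all other mice, and the runner groups overlapped. Its interaction was -1.0 ± 0.30 (edgeR adjusted p = 0.954), with a called running difference of 1.02 ± 0.22 in WT mice (adjusted p = 0.0411) and 0.02 ± 0.21 in FLExDUX4 mice (adjusted p = 0.995). Hadha ran alongside it, at 103 to 138 CPM in WT controls, 138 to 323 in WT runners, 167 to 172 in FLExDUX4 controls and 128 to 230 in FLExDUX4 runners. Its interaction was -0.92 ± 0.32, and its 3′ end overlaps Garem2.

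The sequence before the Hadhb start site is shown because most of the stretch between the start sites of this gene pair lies in it. It is from RefSeq on GRCm38.p6, chr5:30155003-30155252, plus strand, 5′ to 3′ toward Hadhb, and its reverse complement runs toward Hadha. The capitals mark a match to the STAT motif TTCNNNGAA at -125 from the Hadhb start site and to the GC box GGGCGG at -90 and -25, with both strands searched. The STAT motif is held by 7.02% of all promoters of this length and by 7 of the 77 promoter windows of genes named here, the windows of Hadha and Hadhb sharing the same match. The full estrogen-related receptor element TCAAGGTCA, which contains the half-site AAGGTCA and is held by 0.387% of all promoters, had a match in 0 of the 77 windows.
Hadhb: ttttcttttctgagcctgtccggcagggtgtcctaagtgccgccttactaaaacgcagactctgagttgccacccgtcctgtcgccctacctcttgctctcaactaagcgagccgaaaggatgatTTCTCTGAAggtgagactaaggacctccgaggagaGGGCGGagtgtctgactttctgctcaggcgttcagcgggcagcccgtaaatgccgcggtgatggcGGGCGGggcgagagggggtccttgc

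Ppara, a nuclear receptor that drives fatty acid oxidation genes, was at 4.21, 4.10 and 4.81 CPM in WT controls and at 17.8, 8.52, 5.68 and 14.5 CPM in WT runners. It was at 12.9, 16.2 and 13.8 CPM in FLExDUX4 controls and at 16.5, 15.6, 10.8 and 7.13 CPM in FLExDUX4 runners. WT controls lay below all other mice, and the FLExDUX4 controls lay within the range of the runners of either genotype. Its interaction was -1.61 ± 0.50 (edgeR adjusted p = 0.954), from a genotype difference of 1.71 ± 0.39 in controls and 0.10 ± 0.31 in runners. Plin5, which ties lipid droplets to mitochondria, was at 1.26 to 3.02 CPM in WT controls and 3.25 CPM or above in all other mice. Its running difference in WT mice was called at 2.39 ± 0.49 (adjusted p = 0.0280), that in FLExDUX4 mice was 0.36 ± 0.43 (adjusted p = 0.947), and its interaction was -2.03 ± 0.65. Decr1, a reductase for unsaturated fatty acids, was at 50.6 to 68.3 CPM in WT runners against 41.3 to 50.3 CPM in FLExDUX4 runners. Ppargc1a, the coactivator of mitochondrial gene expression, was at 45.4 to 49.9 CPM in WT controls and 55.1 to 82.5 CPM in FLExDUX4 controls, with an interaction of -0.57 ± 0.26. WT running 3, at 44.1 CPM, lay below the WT controls for this gene.

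Mitochondrial lists lay below 0 by less. Of 27 genes of respiratory complexes II to IV, 26 lay below 0 with a median of -0.32, and the 3 at an unadjusted p under 0.05 were Uqcrc1, Cyc1 and Cox6c. Cyc1, cytochrome c1, was at 223 to 237 CPM in WT controls, 285 to 450 in WT runners, 256 to 304 in FLExDUX4 controls and 235 to 364 in FLExDUX4 runners. Its interaction was -0.49 ± 0.22, with a called running difference of 0.66 ± 0.16 in WT mice (edgeR adjusted p = 0.0458). Complex I genes had a median of -0.20 with 4 of 37 above 0, ATP synthase genes -0.24 with 3 of 15 and TCA cycle genes -0.23 with 4 of 20, none with a gene at an unadjusted p under 0.05. Without WT running 4 the medians were -0.20 for complexes II to IV, -0.09 for complex I and -0.15 for the TCA cycle. Without FLExDUX4 running 4 they were -0.13 for ATP synthase and -0.13 for the TCA cycle, whose median was -0.15 without WT running 1. Of the 76 mitochondrial ribosome genes, 34 lay above 0 and the median was -0.04. Mrpl4, a protein of the large mitochondrial subunit, had the smallest p among them, at 32.5 to 37.6 CPM in WT controls and 38.2 CPM or above elsewhere, with an interaction of -0.80 ± 0.25. The mitochondrial genome's own 8 tested genes had a median of 0.05 and the 78 cytosolic ribosome genes one of 0.03.

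**Figure D5:**
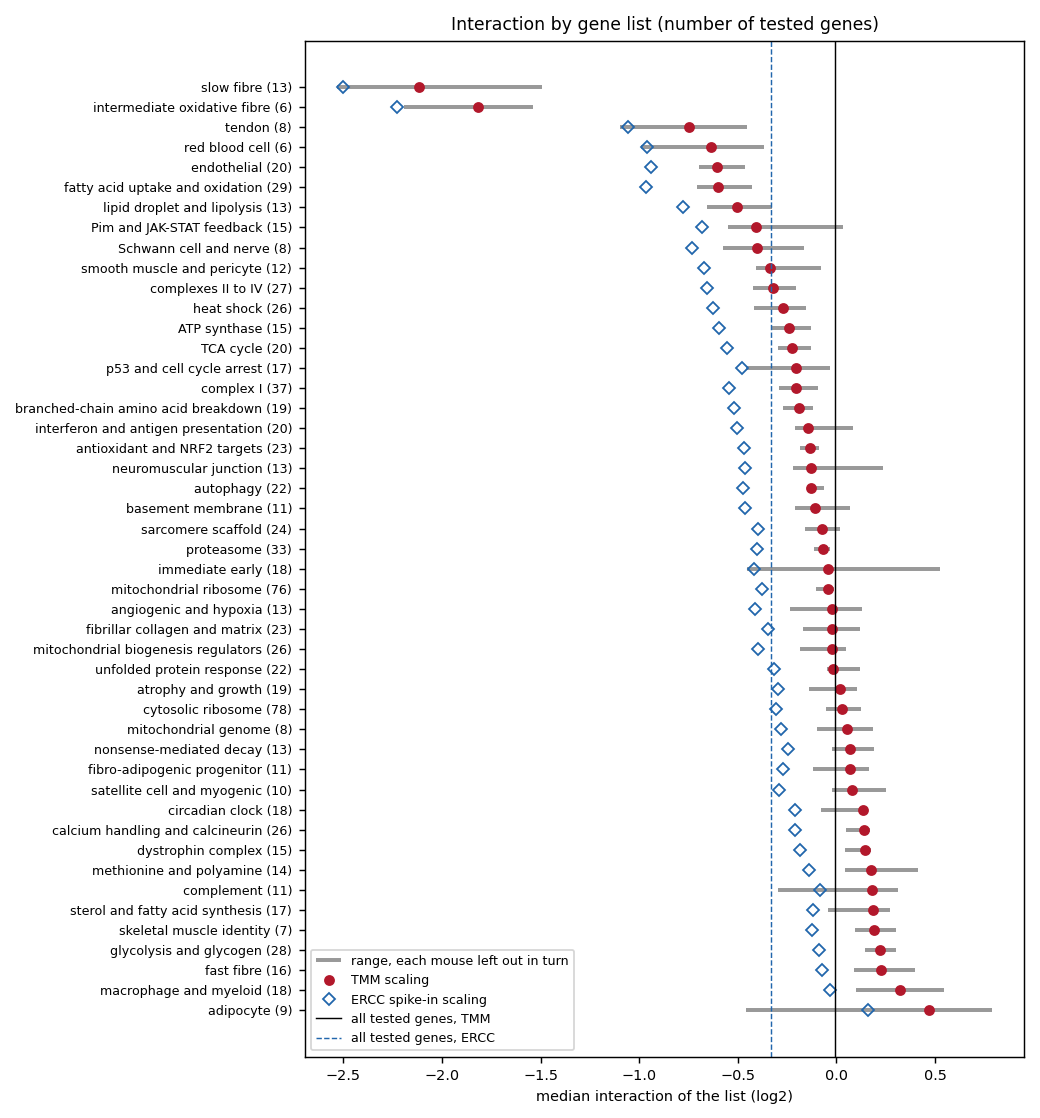
Median interaction (log2) of 47 gene lists with the number of tested genes, under TMM scaling (red) and ERCC spike-in scaling (blue diamonds), with grey bars for the range when each mouse is left out in turn. Slow fibre (-2.12) and intermediate oxidative fibre (-1.82) lie lowest under either scaling; the solid line is the median of all genes under TMM (-0.01) and the dashed line that under ERCC scaling (-0.33).

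The 20 endothelial genes had a median interaction of -0.61, with 18 below 0 and 4 at an unadjusted p under 0.05, among them Gpihbp1, which holds lipoprotein lipase on capillaries. Gpihbp1 was at 8.62 to 11.9 CPM in WT controls, 15.4 to 29.9 in WT runners, 13.7 to 26.1 in FLExDUX4 controls and 8.98 to 24 in FLExDUX4 runners, with an interaction of -1.23 ± 0.42. The adhesion gene Esam and the sialomucin gene Emcn had interactions of -1.0 ± 0.38 and -1.31 ± 0.54. Summed over the list, endothelial markers stood at 364 to 415 CPM in WT controls, 519 to 687 in WT runners, 423 to 512 in FLExDUX4 controls and 384 to 609 in FLExDUX4 runners. Their median ranged from -0.69 to -0.46 with each mouse left out. The part of vessel content in the fibre and fatty acid values above was not tested.

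Red blood cell markers had a median of -0.63 over 6 genes, with summed levels of 501 to 1010 CPM in WT controls, 1177 to 1887 in WT runners, 738 to 1035 in FLExDUX4 controls and 537 to 1776 in FLExDUX4 runners. The median was -0.99 without WT control 2 and -0.37 without FLExDUX4 running 4. Alas2, the heme synthesis enzyme of erythroid cells, had the 1 unadjusted p under 0.05 among them. The 8 tendon markers had a median of -0.75, which ranged from -1.10 to -0.45 with each mouse left out and was -0.46 without WT running 1 and -0.45 without FLExDUX4 control 1. Chad, chondroadherin, was at 1.30 to 4.84 CPM in WT controls and 15.2 to 20.0 CPM in FLExDUX4 controls, and the runner groups overlapped at 2.64 to 16 and 7.84 to 19.6 CPM. Its interaction was -1.71 ± 0.67 (edgeR adjusted p = 0.954), and it overlaps Acsf2. The list's median genotype difference was 1.09 in controls and 0.54 in runners. The 12 smooth muscle and pericyte markers had a median of -0.34, which was -0.08 without WT control 1 and -0.18 without FLExDUX4 control 2. For Acta2, smooth muscle actin, the interaction was -0.91 ± 0.35. For macrophage and myeloid markers the median was 0.32 with 0 of 18 at an unadjusted p under 0.05, and for adipocyte markers it was 0.47, turning to -0.46 without FLExDUX4 running 1. The adipocyte median was 0.11 without WT running 1, 0.18 without FLExDUX4 control 2, and 0.72 to 0.79 without WT running 4, FLExDUX4 running 2 or FLExDUX4 running 4. The macrophage median was 0.10 without WT control 1 and 0.12 and 0.13 without FLExDUX4 control 3 or FLExDUX4 running 2, and it was 0.55 without FLExDUX4 control 2 and 0.50 without WT running 3. With ERCC library sizes it turned to -0.03, which is 0.30 above the shifted median of all genes. The lymphocyte and DUX4-responsive lists had 2 tested genes each and are given no median.

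The 13 lipid droplet and lipolysis genes had a median of -0.50, with 12 below 0, which was -0.33 without FLExDUX4 control 3. Of 8 markers of Schwann cells and nerve, 7 lay below 0, and their median was -0.40. It was -0.17 without WT control 1, -0.25 and -0.24 without WT running 3 or 4 and -0.27 without FLExDUX4 control 1. The 17 genes of p53 and cell cycle arrest had a median of -0.21, with 10 below 0, and it ranged from -0.46 without WT control 1 to -0.03 without FLExDUX4 control 3. Medians within 0.20 of 0 were found for, among others, the circadian clock (0.14), calcium handling (0.14), the dystrophin complex (0.14), antioxidant and NRF2 targets (-0.14), autophagy (-0.13), the proteasome (-0.07), collagens and matrix (-0.02), atrophy and growth (0.02), the unfolded protein response (-0.02) and satellite cell and myogenic genes (0.08). The 26 heat shock genes had a median of -0.27, with 21 below 0 and 3 at an unadjusted p under 0.05. It was -0.42 without FLExDUX4 running 2, -0.15 without FLExDUX4 running 4 and -0.16 without WT control 2, WT running 1 or FLExDUX4 control 3. Fkbp4, a cochaperone of HSP90, was at 63.5 to 75.5 CPM in WT controls and 84.4 CPM or above in all other mice. Its interaction was -0.56 ± 0.20, with a called running difference of 0.64 ± 0.15 in WT mice (edgeR adjusted p = 0.0411) and 0.07 ± 0.14 in FLExDUX4 mice (adjusted p = 0.971). In growth control, 3 genes of the list lay above 0 and 2 below at an unadjusted p under 0.05. Foxo4, a transcription factor of the atrophy programme, had an interaction of -0.96 ± 0.30 and Mtor, the growth kinase, one of -0.98 ± 0.42. The ubiquitin ligase Nedd4 had one of 0.49 ± 0.19. The Pim and JAK-STAT feedback list, which holds Pim3, had a median of -0.41 over 15 genes. Of these, 9 lay below 0, and the median turned to 0.03 without FLExDUX4 control 3. It was -0.19 and -0.27 without WT running 1 or 2 and -0.26 without FLExDUX4 running 1.

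Among genes at an unadjusted p under 0.05, as among all tested genes, more were carried by the controls than by the runners. Of the 537 genes at an unadjusted p under 0.05, 224 (41.7%) were carried by the controls, 51 (9.50%) by the runners and 262 (48.8%) by both. Over all tested genes the shares were 36.4%, 24.5% and 39.1%. The control groups hold 3 mice each and the runner groups 4, and the median standard error of the genotype difference was 0.38 in controls and 0.32 in runners. With fewer mice, chance alone gives larger differences in controls, so these shares are a description only. Among the 295 genes below 0, the controls carried 138, the runners 23 and both pairs 134. Among the 242 above 0, the counts were 86, 28 and 128.

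The WT controls were the group farthest from the mean of the other 3 for 173 of the 295 genes below 0 (58.6%), against 31.3% of all tested genes. For 54 of the 295 the WT controls lay below every other mouse, and the FLExDUX4 runners did so for 3. An interaction below 0 favours WT runners and FLExDUX4 controls that stand above the rest, not below. The FLExDUX4 controls lay above every other mouse for 6 of the 295 and the WT runners for 4. Over all tested genes, the shares below every other mouse were 1.06% for WT controls and 0.0541% for FLExDUX4 runners. The shares above every other mouse were 0.280% for FLExDUX4 controls and 0.126% for WT runners. Among the 242 genes above 0, the FLExDUX4 controls were the farthest group for 90 (37.2%) and the WT controls for 69 (28.5%). There, the WT controls lay above every other mouse for 9 genes (0.568% of all tested genes) and the FLExDUX4 runners for 1 (0.108%). The FLExDUX4 controls lay below every other mouse for 9 (0.298% of all tested genes) and the WT runners for 4 (0.126%). These counts were added after the data had been seen. They describe genes chosen by the contrast itself, and no test of them was made. The ERCC spike-ins took a mean of 0.930% of counts in WT controls, against 0.700% in WT runners, 0.747% in FLExDUX4 controls and 0.694% in FLExDUX4 runners. By mouse the control groups overlapped, with WT control 2 at 0.848% and FLExDUX4 control 3 at 0.867%. The part of the spike-in share in the values above was not tested.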

How the data were processed

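Triceps RNA of 14 male mice was read as 3′ tags (QuantSeq FWD, NextSeq 500, per the labels' protocols). The authors deposited raw read counts per gene and mouse, and in the same table their own log2 fold changes and adjusted p-values of group comparisons. The submitters' processing notes name cutadapt 1.16, STAR 2.5.3a, featureCounts 1.6.2 and DESeq2 and list GRCm38 and GRCh38 as builds. Which annotation release and strand setting were used, and how multiply aligned reads were treated, is not given in the sources used here. GENCODE M21 on GRCm38 held 52403 of the 52550 gene identifiers and gave coordinates and overlaps. Spike-ins (92 ERCC and 7 SIRV rows) were kept out of the gene fits, and 20938 genes had at least 1 count.

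From the deposited counts, edgeR 4.0.16 in R 4.3.3 tested the 11088 genes that passed filterByExpr with a minimum count of 10. The fit used TMM factors, robust quasi-likelihood estimates and 1 mean per group over all 14 libraries, with a common biological coefficient of variation of 0.288. The p-values were adjusted by Benjamini-Hochberg across the tested genes, and 0.05 was the threshold for a call. CPM are counts scaled to TMM library sizes. Standard errors were derived from the log2 difference and its F statistic. List levels are means of log2 CPM with a prior count of 2, and list values are counts and medians without a test. The interaction fit was tested on simulated counts with known changes, placed in FLExDUX4 runners only and only in genes with higher counts. Changes in the other groups or in genes with few counts were not simulated. The libraries hold 3269357 to 6995811 gene counts, no molecular identifiers are recorded, and counting errors cover counting only.

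The members, the gene lists and the tests were chosen with earlier results of these data known. Genes named are the 12 with the smallest interaction p in each direction, given a mean of 5 CPM or more in their highest group. Symbols of the form Gm with digits, ending in Rik or ending in -ps and digits were not named. Each list contributed at most 3 further genes, its smallest p values under an unadjusted 0.05, and Myh7, Myh2, Myh1, Myh4, Ppargc1a, Pim3 and Chad were always named. Groups came from the sample titles, each mouse is a separate animal, and replicate numbers follow record order. The fit was repeated with DESeq2 1.42.0, limma-voom (limma 3.58.1), RLE, upper quartile or ERCC library factors, and 1 surrogate variable from sva 3.50.0. It was repeated with no low-count filter, with 1 CPM required in 3 libraries, with spread estimates that were not robust, with a threshold of 0.10 and on counts that left out mitochondrial genes and Gm42418. Each mouse was left out in turn, FLExDUX4 control 1 was left out together with WT running 2, and the 4 component contrasts were also fitted on their own 2 groups. Promoter windows are the 250 bases before RefSeq start sites on GRCm38.p6, found for 62 of the 77 named genes.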

Additional observations from a re-analysis of the deposited data

Results flagged for a closer look

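Of 176 groups of 4 runners examined for a mouse far from the others, 9 had one, where chance alone gives about 1 in 20. For 5 genes the mouse was a WT runner. Il4ra was at 1.95 CPM in WT running 2, below the other WT runners, and Tigar was at 86.3 CPM in WT running 3, above them. Mylk, smooth muscle myosin light chain kinase, was at 12.9 CPM in WT running 4, below the others. Esrrb, the estrogen-related receptor beta gene, was at 11.3 CPM in WT running 1, and mt-Nd6, a complex I subunit of the mitochondrial genome, was at 30.1 CPM in the same mouse, each above the other WT runners. Esrrb had 0 counts in all 3 WT controls.

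For 3 genes and 1 list the mouse was a FLExDUX4 runner. AC153524.3 was at 2.72 CPM and Decr1 at 50.3 CPM in FLExDUX4 running 1, each above the others. Eno3 was at 2415 CPM in FLExDUX4 running 2, below the others. The mean log2 level of the red blood cell list was -0.39 in FLExDUX4 running 4, below the others, and that mouse also had the lowest slow fibre level of all 14.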

How the results depend on the processing

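No paired analysis was possible because the labels give the mice of different groups no shared replicate number or batch and do not say which mice share a litter. The interaction had 0 called genes in the main test, 1 (Pim3) with ERCC library sizes and 11 without a low-count filter. The 11 were AC153524.3, Aldh2, Dhrs4, Fgf1, Gm26740, Gm37435, Hadha, Hspb7, Myom3, Pim3 and Timp4. With each mouse left out the count ranged from 0 to 1, the 1 being Pim3 without WT running 1 or FLExDUX4 control 3 and Myom3 without WT running 3. Genes at an unadjusted p under 0.05 numbered 537 in the main test, 1181 with ERCC library sizes, 1199 without a filter and 466 to 704 with a mouse left out. ERCC scaling moved the share of these above 0 from 45.1% to 2.96% and the median of all genes to -0.33. The cause of these shifts was not tested.

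Genotype in controls had 0 called genes in the main test, 3 with DESeq2, 2 with ERCC library sizes, 12 without a filter, 2 without robust estimates, 23 with only the 2 groups compared and 0 to 3 with a mouse left out. Genotype in runners had 2 without a filter and otherwise 0. Running in FLExDUX4 mice had 24 without a filter, 6 with only the 2 groups compared and 0 to 2 with a mouse left out. Running in WT mice had 55 in the main test, 196 with DESeq2, 23 with limma-voom, 643 with ERCC library sizes, 217 without a filter, 149 at an adjusted p under 0.10 and 0 to 197 with a mouse left out. The 77 named genes kept the direction of their interaction in all settings run. Depth limits genes such as Myom3, AC153524.3 and Il4ra, which had fewer than 10 counts in some mice. In WT controls, 3 counts correspond to 0.642 to 0.918 CPM before TMM scaling. The low levels of Dhrs4 and Fgf1 in WT controls therefore also rest on few reads.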

Other observations

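Genes of the smaller lists that were named by the same rule gave further values, none of them called for the interaction. Bckdha, a subunit of the enzyme that commits branched-chain amino acids to breakdown, was at 16.9 to 21.7 CPM in WT controls and 24.7 CPM or above in all other mice. Its running difference in WT mice was called at 0.88 ± 0.21 (edgeR adjusted p = 0.0411), that in FLExDUX4 mice was 0.01 ± 0.20 (adjusted p = 0.997), and its interaction was -0.87 ± 0.28. Catalase, encoded by Cat, was at 21.6 to 32.4 CPM in WT controls and 34.5 CPM or above in all other mice, with an interaction of -0.86 ± 0.29. Il6ra, the interleukin 6 receptor chain, was at 2.38 to 4.00 CPM in WT controls and 4.04 CPM or above elsewhere, with an interaction of -1.27 ± 0.59. Utrn, the dystrophin relative utrophin, had an interaction of -0.68 ± 0.29, with overlapping groups.

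Other genes had a different order of groups. Psmc5, a subunit of the proteasome's regulatory particle, was at 26.8 to 36.4 CPM in FLExDUX4 runners and 48.1 to 55.1 CPM in FLExDUX4 controls, while the WT groups overlapped at 42.4 to 52.2 and 30.7 to 51.8 CPM. Its interaction was -0.57 ± 0.26. Bhlhe41, a repressor of the circadian clock, was at 70.2 to 87.0 CPM in WT controls, 23.9 to 61.9 in WT runners, 49 to 68.8 in FLExDUX4 controls and 35.8 to 67.1 in FLExDUX4 runners, with an interaction of 0.82 ± 0.34. Jun, an immediate early transcription factor, was at 60.7 to 74.6 CPM in WT runners and 72.7 to 98.6 CPM in FLExDUX4 runners, with an interaction of 0.54 ± 0.24 carried by the runners.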
